A study of Homo sapiens with 4 samples.

Results

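The 8 leukocyte miRNA assays described here are miR-223, miR-142-3p, miR-142-5p, miR-150, miR-155, miR-146a, miR-146b-3p and miR-146b-5p. They were taken by name from 377 human miRNA assays on the array. The rule for this uses no measured value, but it was chosen with earlier results of these data known. The cells were K562, an established line from chronic myeloid leukaemia, kept for 24 h in AIM-V medium at 20% oxygen (normoxia) or 1% oxygen (hypoxia). RNA came from the cells and from the exosome fraction precipitated from the medium, which gives 4 groups, the cells and the exosomes at either oxygen level, with 1 sample in each and all of the same line. Each miRNA was read by its own TaqMan PCR assay.

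The question of the design is whether low oxygen changes the miRNAs held in the cells and those released in vesicles. The authors' deposited table answers it only in part, since it gives 2 ratios per assay, sample 2 over sample 1 and sample 4 over sample 3, without saying which group a numbered sample is. The 4 U6 wells, a small nuclear RNA, are at exactly 1 in the first ratio of the authors' deposited table, which is called U6-scaled here, and the second ratio, called spike-scaled, has the added plant miRNA ath-miR159a at exactly 1. The series design text gives a U6 control to the cells and the plant spike to the exosomes. Higher and lower therefore mean higher or lower in the numerator sample, not under hypoxia. No group has a replicate, so no difference has an error or a test. The threshold cycles behind the ratios were not used here, so the level of each miRNA was not examined, and neither was a check of the K562 label by its marker miRNAs. Where 1 of the samples compared stood at a detection limit, its ratio is only a bound, and such ratios carry no mark in the authors' deposited table. In bulk samples of this kind, fewer cells or vesicles that hold a miRNA and less of it in each cannot be told apart.

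MicroRNAs are short RNAs that pair with messenger RNAs, mainly through a seed near their 5′ end, and lower the output of those messengers. The assays here report miRNAs known from white blood cells. miR-223 is abundant in granulocytes and monocytes, and miR-142 is made across blood cells of nearly all types. miR-150 marks mature lymphocytes and restrains the transcription factor MYB. miR-155 rises when lymphocytes and macrophages are activated. miR-146a is induced by NF-κB and dampens Toll-like receptor signalling through TRAF6 and IRAK1, and miR-146b is its paralog.

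The mature sequences show which of these assays are related. They are from RefSeq (GRCh38.p14), written 5′ to 3′ with the seed, bases 2 to 8, in capitals, and a mature sequence was matched for 7 of the 8 assays. The array's names of 4 assays carry no arm, and the arm shown for 3 of them was taken from the older naming convention, in which the bare name meant the main product.

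miR-223-3p: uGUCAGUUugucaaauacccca
miR-142-3p: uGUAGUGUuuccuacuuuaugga
miR-142-5p: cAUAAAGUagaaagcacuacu
miR-155-5p: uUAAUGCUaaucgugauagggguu
miR-146a-5p: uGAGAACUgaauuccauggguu
miR-146b-5p: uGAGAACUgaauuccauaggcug
miR-146b-3p: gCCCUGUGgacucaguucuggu

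Only miR-146a and miR-146b-5p share a seed among these. Counted from the 5′ end of miR-146a, they have the same first 17 bases and differ by the substitutions G18A and U21C over 22 aligned bases (90.9% identity), and miR-146b-5p is 1 base longer, at 23 bases. Assays of such close relatives can detect each other's target, so the values of this pair are uncertain in that respect. Other miRNAs with these seeds were sought among the RefSeq mature sequences at hand, a set that is not complete, since it held none for miR-150. None of the others found with the seed of miR-142-5p (miR-5590-3p) or of the miR-146 pair (miR-7153-5p) is named on the array. No other in that set has the seed of miR-223-3p, miR-142-3p, miR-155-5p or miR-146b-3p.

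The members come from 6 hairpin genes on 6 chromosomes of GRCh38.p14. MIR223 lies at chrX:66018870-66018979 on the plus strand, within the span of the long noncoding host gene MIR223HG. MIR155 lies at chr21:25573980-25574044, plus strand, within MIR155HG, and MIR146A at chr5:160485352-160485450, plus strand, within MIR3142HG. MIR150 lies at chr19:49500785-49500868, and neither it nor MIR146B lies within the span of another RefSeq gene. MIR142 and MIR146B each gave rise to both of the arms assayed, which are in capitals in the hairpins below. MIR142 is at chr17:58331232-58331318 on the minus strand, within the spans of MIR142HG and TSPOAP1-AS1, and MIR146B at chr10:102436512-102436584 on the plus strand. Bases 16 to 36 of the MIR142 hairpin are the 5p arm and bases 52 to 74 the 3p arm. In MIR146B the arms are bases 9 to 31 and 46 to 67.

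MIR142: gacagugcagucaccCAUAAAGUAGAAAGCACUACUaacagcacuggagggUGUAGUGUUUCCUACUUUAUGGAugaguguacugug
MIR146B: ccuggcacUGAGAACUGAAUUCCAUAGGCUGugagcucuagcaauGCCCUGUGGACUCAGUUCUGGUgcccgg

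Not every assay carried information on a difference. Of 384 wells in the authors' deposited table, 201 have the same U6-scaled ratio of 1.0619, and 143 have the same spike-scaled ratio of 1.0796, while no other ratio is held by more than 4 or 2 wells. An assay at such a commonest ratio is called uninformative here. miR-150, miR-155 and miR-146b-3p were uninformative in the U6-scaled comparison, so 5 of the 8 members were informative there, beside 177 of all 377 miRNAs (46.9%). All 8 members were informative in the spike-scaled comparison, beside 240 of 377 (63.7%). The U6-scaled value of those 3 members is thus that of the column, which the plant spike also has, and carries no information on a difference. Whether these members were detected was not examined.

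miR-146a had the highest ratio of the members in both comparisons, and it was the only member past 2-fold in either. Any of these ratios, that of miR-146a included, may be only a bound. The other ratios ran from 0.831 to 1.63 in the authors' deposited table. In the U6-scaled comparison 0 of 5 informative members were at least 2-fold higher and 0 were at least 2-fold lower, where 10.2% and 3.39% of the 177 informative miRNAs were. In the spike-scaled comparison 1 of 8 was at least 2-fold higher and 0 were lower, beside 8.75% and 3.33% of the 240 informative miRNAs. At a limit of 1.5-fold, miR-146a and miR-146b-5p were higher in the U6-scaled comparison, 2 of 5 beside 18.1% of all informative miRNAs, and 0 were lower beside 7.91%. In the spike-scaled comparison miR-146a and miR-150 were at least 1.5-fold higher, 2 of 8 beside 18.3%, and 0 were lower beside 7.08%. These counts over so few members are a description and set the members apart in no tested way.

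**Figure D1:**
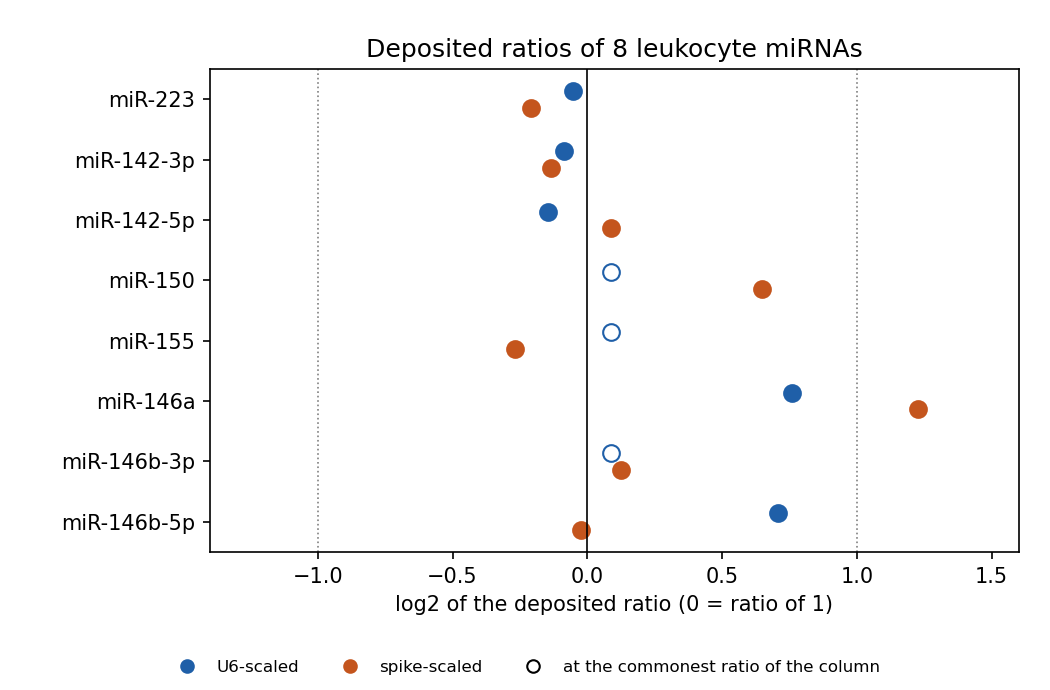
Log2 of the deposited ratio (x axis, 0 is a ratio of 1) of the 8 leukocyte miRNAs (y axis), U6-scaled in blue and spike-scaled in orange, 1 value each and no error bars; open circles are assays at the commonest ratio of the column and dotted lines mark 2-fold. Only the spike-scaled miR-146a, at 1.23, lies beyond a dotted line.

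The myeloid miR-223 was slightly below 1 in both comparisons. In the authors' deposited table it stands at 0.963 U6-scaled and 0.864 spike-scaled. These are ranks 114 of 177 and 197 of 240 from the highest, so miR-223 lay below the median informative miRNA each time. Relative to that median it was 0.921 and 0.788. Its U6-scaled side of 1 depends on the reference, being 1.09 against the geometric mean of RNU44 and RNU48, the other small RNA controls on the array. In the spike-scaled comparison these controls stand at the commonest ratio and give no second reference.

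Both arms of miR-142, the miRNA shared by most blood cells, stayed close to 1. The authors' deposited table gives miR-142-3p at 0.942 U6-scaled and 0.911 spike-scaled. For miR-142-5p the authors' deposited table gives 0.904 and 1.06. The arms differed by 0.06 on the log2 scale in the U6-scaled comparison, less than any of the other 9 hairpins with both arms informative there, whose median difference with MIR142 included was 0.79. In the spike-scaled comparison the arms differed by 0.22, and 6 of the other 19 such hairpins had a smaller difference (median 0.34 over all 20). miR-142-5p was above 1 in the spike-scaled comparison as deposited and below it, at 0.969, relative to the median informative miRNA.

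The lymphoid and activation miRNAs could be compared in the spike-scaled ratio only, and there they lay on opposite sides of 1. miR-150 stands at 1.57 in the authors' deposited table, rank 35 of 240, and at 1.43 relative to the median informative miRNA. miR-155 was the lowest of all members, at 0.831 in the authors' deposited table, rank 210 of 240. Relative to the median it was 0.757. Neither reached 2-fold. Any member's ratio may be only a bound, those of miR-150, miR-155 and miR-146a included. No fold is therefore given between miR-155 and miR-146a, at the other end of the members.

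miR-146a and its paralog went alike in the first comparison and apart in the second. The authors' deposited table lists miR-146a at 1.695 U6-scaled, rank 23 of 177, and 2.34 spike-scaled, rank 14 of 240. For miR-146b-5p the authors' deposited table lists 1.63, rank 26, and 0.983, rank 169. The deposited ratio of miR-146a was thus 1.04 times that of miR-146b-5p U6-scaled and 2.38 times spike-scaled. This compares their ratios between samples, not their levels. As for any member, a ratio of miR-146a or miR-146b-5p may be only a bound, and its folds and ranks then are not exact. Relative to the median informative miRNA miR-146a stood at 1.62 and 2.13. Relative to RNU44 alone both paralogs passed 2-fold in the U6-scaled comparison, at 2.11 for miR-146a and 2.04 for miR-146b-5p, where 29 of the 177 informative miRNAs (16.4%) passed it too. Relative to RNU48 alone they were 1.73 and 1.67. The authors' deposited table has RNU44 at 0.801 and RNU48 at 0.9795 there. The other arm of the paralog, miR-146b-3p, is at 1.09 spike-scaled in the authors' deposited table, 0.15 on the log2 scale above miR-146b-5p, and 4 of the other 19 hairpins had a smaller difference between arms.

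**Figure D2:**
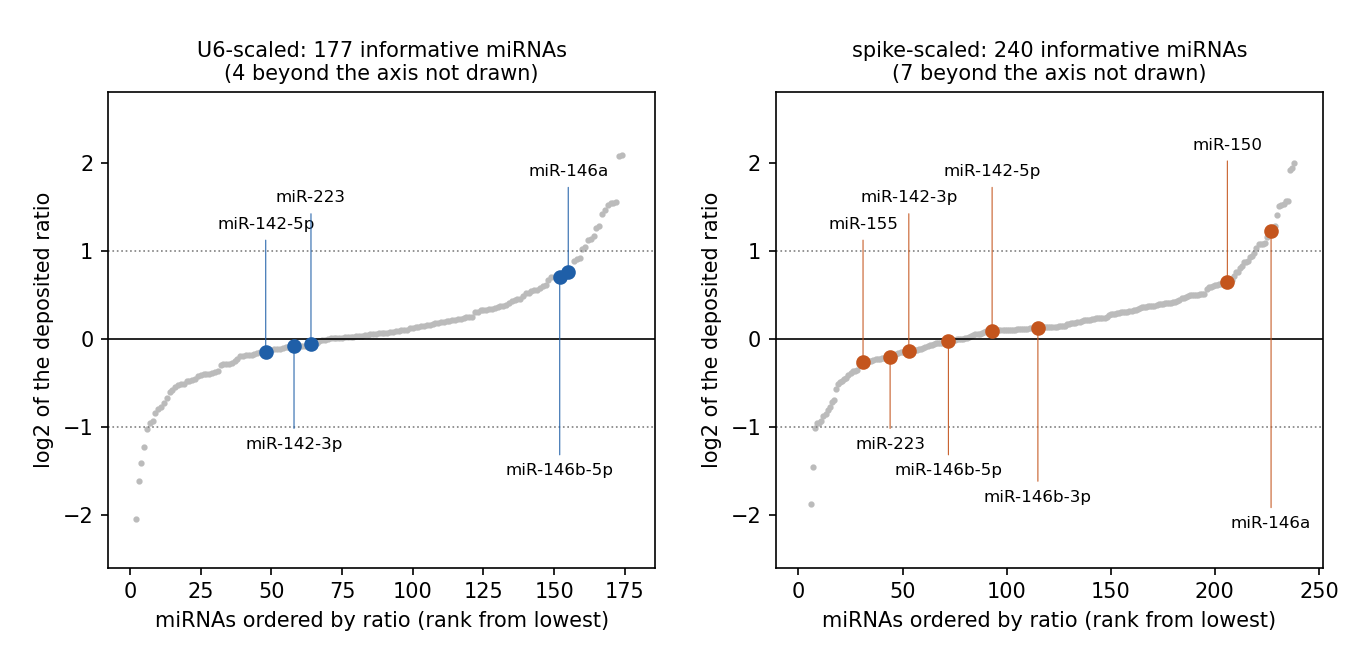
Log2 of the deposited ratio (y axis) of the informative miRNAs, in grey, ordered from the lowest to the highest (x axis, rank), for the U6-scaled (left, 4 beyond the axis left out) and the spike-scaled comparison (right, 7 left out); coloured points are the leukocyte miRNAs and dotted lines mark 2-fold. miR-146a and miR-146b-5p sit together near the upper end on the left. On the right miR-146a lies past the 2-fold line and miR-150 lies short of it, both in the upper part, while miR-146b-5p is among the lower values.

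As a group the members lay near 1. Their median ratio was 0.963 over the 5 informative in the U6-scaled comparison and 1.02 over the 8 in the spike-scaled one, where all informative miRNAs had medians of 1.05 and 1.10. A total of 3 of 5 and 6 of 8 members were below the median of all informative miRNAs. The sign of the group's median is not fixed. The U6-scaled median ratio became 1.09 against the geometric mean of RNU44 and RNU48. In the spike-scaled comparison the median ratio became 0.931 relative to the median informative miRNA.

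For the 5 members informative in both comparisons the ratios were set side by side. The spike-scaled minus the U6-scaled log2 ratio was 0.47 for miR-146a, 0.23 for miR-142-5p, -0.05 for miR-142-3p, -0.16 for miR-223 and -0.73 for miR-146b-5p. Over all 173 miRNAs informative in both, the median of this difference was 0.07 and its quartiles were -0.39 and 0.42. Of the members, miR-146a and miR-146b-5p were therefore outside the quartiles, on opposite sides. miR-223 and miR-142-3p were among the 20 of the 173 that were below 1 in both comparisons. miR-146a was among the 68 that were above 1 in both, and miR-142-5p and miR-146b-5p were among the 85 that changed side.

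**Figure D3:**
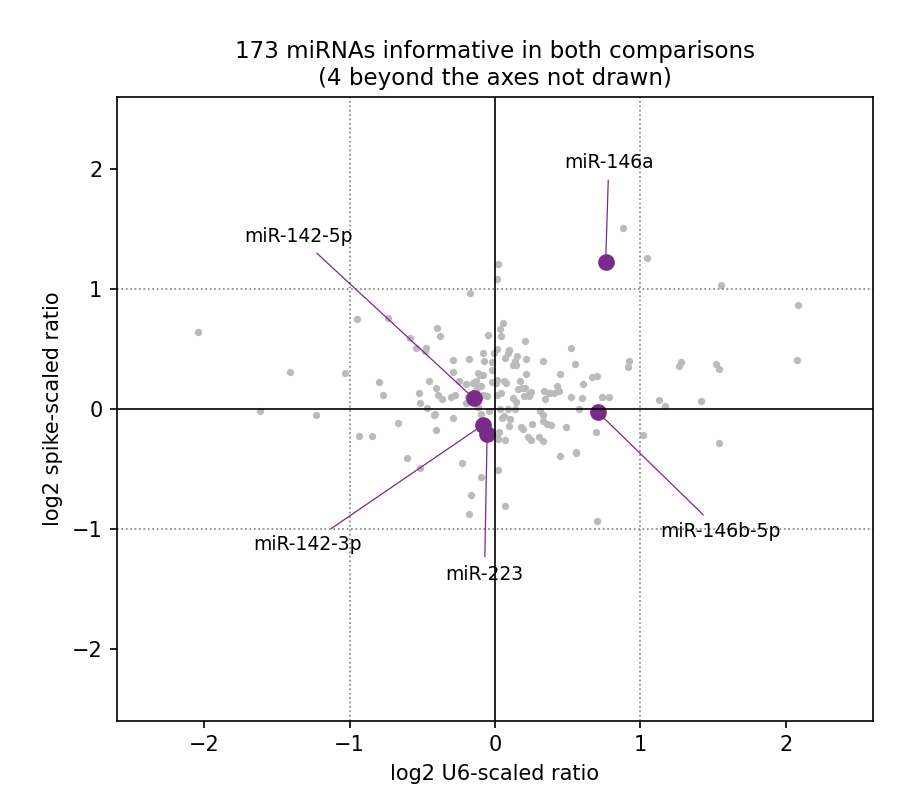
Log2 U6-scaled ratio (x axis) against log2 spike-scaled ratio (y axis) of the miRNAs informative in both comparisons, grey (169 drawn, 4 beyond the axes left out), with the 5 leukocyte miRNAs among them in purple and dotted lines at 2-fold. miR-223 and both arms of miR-142 lie within 0.25 of the origin on each axis, miR-146a is high on both axes, and miR-146b-5p is high on the x axis alone.

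The miRNA most like each of these 5 was taken as the one with the smallest straight-line distance in the plane of both log2 ratios, among 172 candidates, a likeness that rests on 2 values per miRNA. miR-146a had no neighbour within 0.25, and the nearest was miR-18b at 0.29, which the authors' deposited table gives at 2.07 and 2.39. Nearest to miR-146b-5p was miR-574-3p at 0.13, and to miR-223 it was miR-320 at 0.07, with miR-142-3p next at 0.08. miR-374a lay 0.03 from miR-142-3p and miR-140-5p lay 0.04 from miR-142-5p. Within 0.25 there were 6 miRNAs around miR-146b-5p, 15 around miR-223, 19 around miR-142-3p and 30 around miR-142-5p, so a close neighbour is common near the centre of the plane.

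Other miRNAs of the same biology were described from 3 lists of names. The lists overlap, so miR-21, miR-34a and miR-125b are counted repeatedly. Of 8 further miRNAs that respond to Toll-like receptors or NF-κB, 5 were informative U6-scaled and 6 spike-scaled, none reached 2-fold in either direction, and the medians were 1.26 and 1.10. The most distant from 1 in the authors' deposited table were miR-21 at 1.36 U6-scaled and miR-125b at 0.727 spike-scaled. Of 13 further miRNAs of myeloid differentiation, 10 and 13 were informative, none reached 2-fold in either direction, and the medians were 1.15 and 1.09. miR-196b, which lies in a HOX cluster, is at 1.63 U6-scaled in the authors' deposited table, and miR-34a, a p53 target, at 0.514 spike-scaled. Spike-scaled, miR-196b lay the other way, at 0.525 in the authors' deposited table, and miR-34a was uninformative U6-scaled. Of 12 further miRNAs of lymphocyte differentiation, 8 and 12 were informative, with medians of 1.09 and 1.18. There miR-19a, of the miR-17 cluster, was past 2-fold U6-scaled at 2.02 in the authors' deposited table. Spike-scaled, miR-19a was below 1, at 0.860. The other miRNAs of that cluster on the list ran from 0.92 (miR-92a) to 1.11 (miR-17) U6-scaled. In the spike-scaled comparison 2 of the lymphocyte list passed, miR-181c at 2.66 and miR-342-5p at 2.43 in the authors' deposited table. miR-181c is of a family that tunes T cell receptor signalling, and miR-181a, of the same family, was at 1.30. The other arm of the miR-342 hairpin, miR-342-3p, lay the other way, at 0.851. None of the lymphocyte list was 2-fold lower in either comparison. Over all informative miRNAs 10.2% U6-scaled and 8.75% spike-scaled were at least 2-fold higher, and 3.39% and 3.33% at least 2-fold lower. The counts in such short lists are a description and were not tested.

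Marker miRNAs of other cell types give little to set beside these values. Of the erythroid names, miR-451 and miR-486-3p were on the array and informative in both comparisons, and the authors' deposited table gives miR-451 at 0.719 and 1.43 and miR-486-3p at 0.729 and 1.18. The other arm of the erythroid miR-486, outside the list and added after its values were seen, lies the other way: for miR-486-5p the authors' deposited table has 1.24 U6-scaled and 0.987 spike-scaled. The liver marker miR-122 was uninformative in both. Of 6 muscle assays, 0 (U6-scaled) and 2 (spike-scaled) were informative, with miR-133a the farther from 1 at 1.77 in the authors' deposited table. All 3 neural assays were informative and within 2-fold, the farthest from 1 in the authors' deposited table being miR-9 at 1.35 U6-scaled and miR-124 at 0.572 spike-scaled. Of 7 epithelial assays 2 and 4 were informative, and only miR-200a passed 2-fold, with 18115 and 9071 in the authors' deposited table. These values lie far beyond the upper quartiles of all informative miRNAs, 1.31 and 1.33, and may be only bounds. The signal behind them was not examined. Of all informative miRNAs, 10.2% U6-scaled and 8.75% spike-scaled were at least 2-fold higher. The part of these other cell types in the members' ratios was not tested.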

How the data were processed

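Per the labels' protocols, a fixed volume of RNA went into reverse transcription with a primer pool, and only the exosome products are said to have been amplified further before the array was read. The authors' deposited table holds linear fold ratios between numbered samples, which the series design text credits to Data Assist 3.1. The other table holds 4 per-sample columns headed by numbers that no sample label carries, so they were matched to no sample and not used. Ratios were taken as deposited, log2 values were computed without a pseudocount, and miRNAs at the commonest ratio of a column were left out of medians and counts as uninformative (Python 3.11.15, numpy 2.4.6, pandas 2.3.3, matplotlib 3.10.9). A limit of 2-fold was used, with 1.5-fold and 3-fold as alternatives, and other references were the median informative miRNA, RNU44 and RNU48. Named by rule are the 8 members, the nearest miRNA to each of the 5 informative in both comparisons, and the control wells. From each list the rule names the miRNAs past 2-fold or, if none, the one farthest from 1. Some others were named outside this rule, among them miR-486-3p, miR-486-5p, miR-342-3p, miR-181a, miR-17 and miR-92a. Members, lists and rules were chosen with earlier results of these data known. The number of samples, 1 per group, limits the precision, and the signal behind each ratio is not analysed here. The sources of the data used here give no genome build, so coordinates and sequences are RefSeq's, on GRCh38.p14.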

Additional observations from a re-analysis of the deposited data

Results flagged for a closer look

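miR-146b-5p and miR-142-5p lay on opposite sides of 1 in the comparisons. For miR-146b-5p the spike-scaled minus the U6-scaled log2 ratio was -0.73, and for miR-142-5p it was 0.23. Relative to the median informative miRNA the differences were -0.80 and 0.16, and miR-142-5p was then below 1 in both comparisons. Neither difference was tested, since each ratio has 1 sample on each side. Of the 173 miRNAs informative in both comparisons 85 (49.1%) lay on opposite sides, miR-146b-5p and miR-142-5p among them.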

How the results depend on the processing

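No paired analysis was possible because there is 1 sample per group, which also means that none could be omitted. In the U6-scaled comparison the count of members at least 2-fold higher was 0 as deposited, 2 relative to RNU44 alone and 2 at a 1.5-fold limit. Of all informative miRNAs 10.2%, 16.4% and 18.1% passed in these settings. In the spike-scaled comparison the count of members was 1 as deposited, 2 at a 1.5-fold limit and 0 at a 3-fold limit. Of all informative miRNAs 8.75% passed as deposited and 18.3% at 1.5-fold. The share past 3-fold was not counted, so the 0 there has nothing to be set against. No alternative gave a member at least 2-fold lower in either comparison, the 1.5-fold limit included. At that limit 7.91% of all informative miRNAs were lower U6-scaled and 7.08% spike-scaled. The U6-scaled median log2 ratio of the members, -0.05 as deposited, was -0.12 relative to the median informative miRNA, 0.12 relative to RNU44 and RNU48, 0.27 relative to RNU44 alone, -0.024 relative to RNU48 alone and 0.087 over all 8 assays. Leaving out each member in turn gave -0.070 to 0.33, with miR-223, miR-142-3p or miR-142-5p left out giving the positive values. The spike-scaled median, 0.03 as deposited, was -0.10 relative to the median informative miRNA and ran from -0.024 to 0.089 with each member left out. Relative to RNU44, or to RNU44 and RNU48 together, all 5 informative members were above 1 in the U6-scaled comparison, against 2 as deposited. Another reference moves every ratio of a column by the same factor, by construction.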
